A study of Mus musculus with 10 samples.

Results

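The 9 genes described here encode secreted factors that recruit and shape blood vessels, together with a pair of co-receptors for them. They were taken by identifier from the deposited table in a fixed order: VEGFA (ENSG00000112715), VEGFB (ENSG00000173511), VEGFC (ENSG00000150630), PGF (ENSG00000119630), ANGPT1 (ENSG00000154188), ANGPT2 (ENSG00000091879), FGF2 (ENSG00000138685), NRP1 (ENSG00000099250) and NRP2 (ENSG00000118257). All 9 were found among the 33538 human genes of the table, and 8 of them passed the filter on low counts that left 16013 genes for testing. ANGPT2 did not pass and is given mainly by its raw counts.

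The material was 10 samples from grafts of DAOY, a human medulloblastoma line, carried on the flank of nude mice that lack mature T cells. Every mouse carried the same line, was labelled female and had 30 days of treatment; the labels used here give neither age nor substrain. The 3 control libraries came from mice on ordinary chow. Another 3 came from mice given DHA oil, a source of docosahexaenoic acid. The other 4 came from mice given fish oil, read here as the arm that joined DHA to eicosapentaenoic acid (EPA). Each library is 1 tumour sample of a single cell line, grown outside the brain, and is called a tumour below. The labels do not say that libraries of a group came from separate mice. Each p-value thus reflects only the variation among these samples, which may be technical.

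Background on the family is as follows. VEGF ligands bind receptor tyrosine kinases on endothelial cells, and VEGFA is the main one made by oxygen-starved tumour cells. The neuropilins bind VEGF ligands and class 3 semaphorins beside those receptors and have no kinase of their own. The angiopoietins act on the TIE2 receptor, ANGPT1 mainly as an activator that steadies vessels and ANGPT2 mainly as its context-dependent antagonist, while FGF2 signals through FGF receptors with heparan sulfate. In a human graft the vessels are largely of the host, while human transcripts come from the implanted cells.

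Libraries held from 6187116 counts (fish oil replicate 1) to 10035702 counts (DHA oil replicate 2), and libraries of 1 diet correlated at r = 0.961 to 0.986 over genes. Levels are given as CPM, the usual read count scaled for depth, on TMM-scaled library totals. They are not divided by transcript length and so were not compared between genes. On the first principal component, with 26.4% of the variance, fish oil replicates 4 and 2 stood apart from the other 8 libraries. Values without them are given where a result rests on them. In bulk tissue, fewer cells of a type and less RNA per cell cannot be told apart. Mouse reads that align to the human genes could be among the counts, and their part in these levels was not tested.

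None of the 8 tested genes was called between diets. In edgeR's quasi-likelihood fit, with p-values adjusted by Benjamini-Hochberg over all 16013 genes, 0 of 8 passed an adjusted p of 0.05 for both oils against control, where 0.131% of all genes were called. The same count of 0 of 8 was found when DHA oil was set against control (0% of all genes called), when fish oil was (0.00624%) and when the oils were compared with each other (0%). At an unadjusted p under 0.05 edgeR counted 0, 0, 1 and 0 members in these comparisons, beside 2.62%, 2.74%, 3.48% and 4.84% of all genes. DESeq2 also called 0 members in each, with 0, 0, 1 and 0 at an unadjusted p under 0.05. Limma-voom, run here and below with quality weights that let libraries count unequally, called 0 as well, with 2, 2, 0 and 0 at that level. The share of all genes at that level is not given for DESeq2 or limma-voom, so their unadjusted counts have no background beside them.

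**Figure D1:**
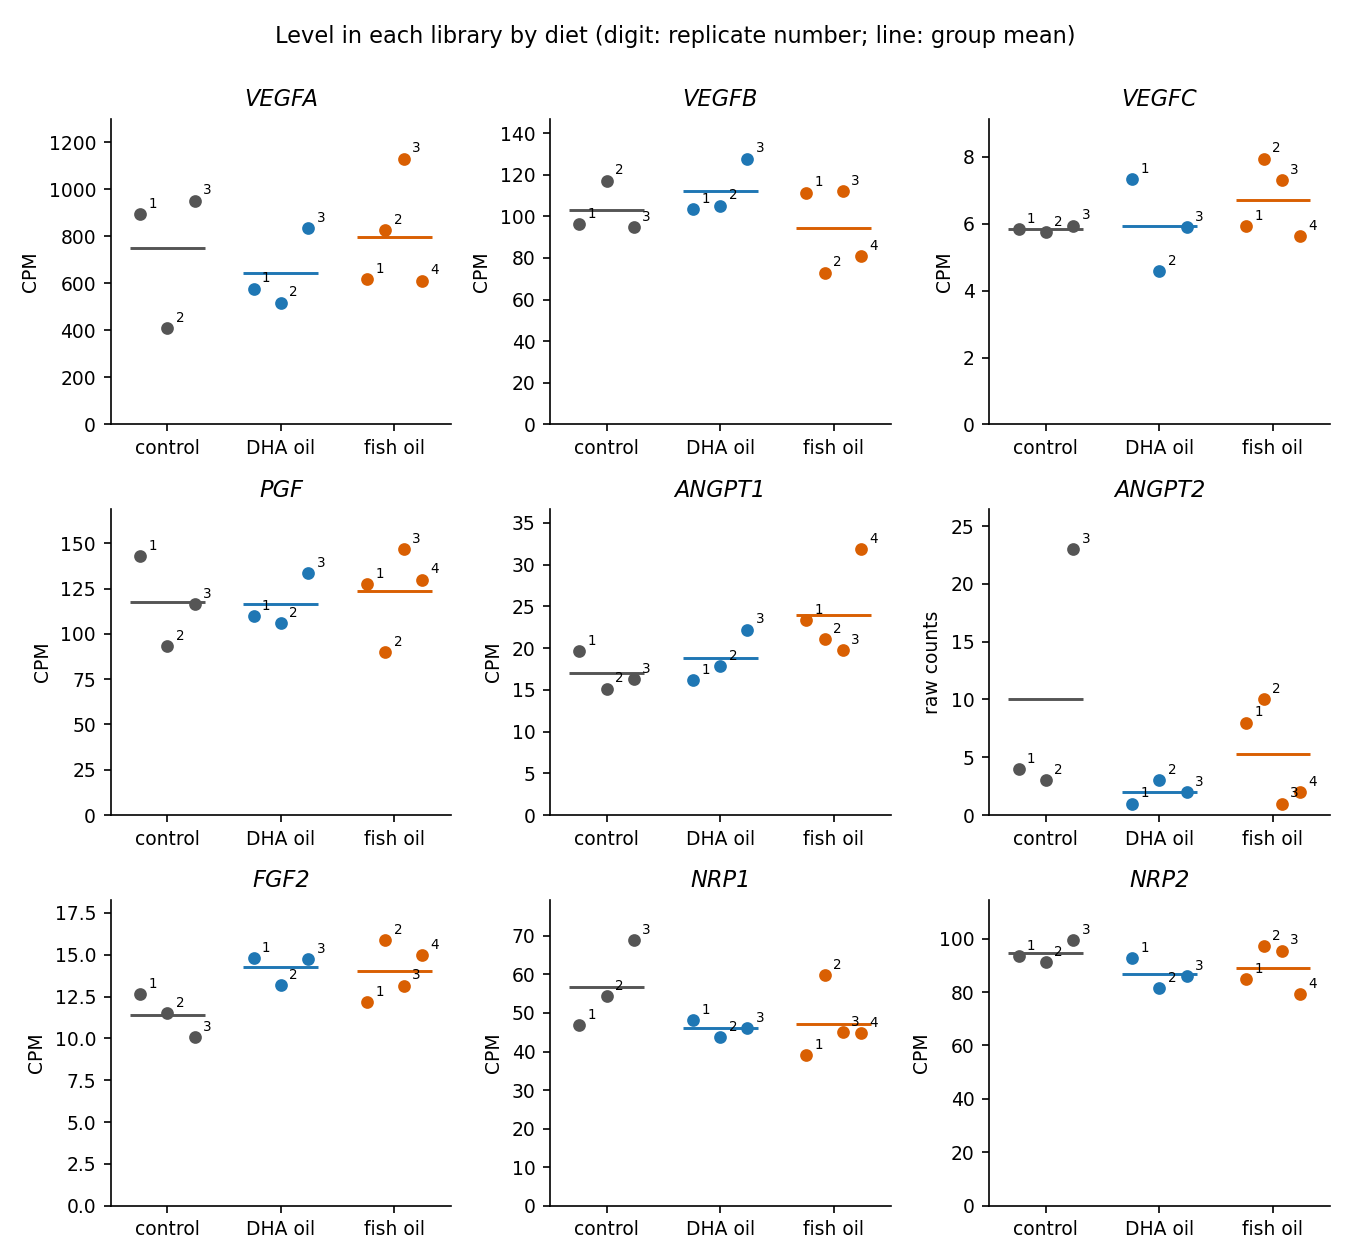
Level of each of the 9 genes in the 10 libraries, by diet. The vertical axes start at 0 and give CPM, or raw counts for ANGPT2; points are libraries, digits are replicate numbers and lines are group means. VEGFA ranged from 409 to 1130 CPM with overlapping diets, and ANGPT2 reached 23 counts in control replicate 3 alone.

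Among the 4 VEGF ligands, VEGFA showed the widest differences between tumours, and tumours of every diet overlapped. In control it stood at 893, 409 and 951 CPM in replicates 1, 2 and 3. In DHA oil it stood at 578, 518 and 835 CPM in replicates 1, 2 and 3. In fish oil it stood at 619, 826, 1130 and 611 CPM in replicates 1 to 4. The lowest tumour of all was a control and the highest was on fish oil, and the ranges of the 3 diets overlapped. Mean VEGFA was 751 ± 298 CPM (SD, n = 3) on chow. It was 644 ± 168 CPM (SD, n = 3) with DHA oil and 796 ± 244 CPM (SD, n = 4) with fish oil.

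VEGFA had a log2 fold change of -0.22 for DHA oil against control, with a 95% interval of -0.85 to 0.41. For fish oil against control it was 0.08 (-0.51 to 0.67), and between the oils, fish oil minus DHA oil, it was 0.31 (-0.29 to 0.90). On the linear scale these intervals reach down to 0.553-fold and up to 1.87-fold. Single libraries of every group moved these values, with no call in any of these fits. Without control replicate 2 the log2 fold change of VEGFA was -0.52 for DHA oil and -0.21 for fish oil, whereas leaving out control replicate 3 gave -0.02 and 0.29. Leaving out DHA oil replicate 3 gave -0.46 for DHA oil, and leaving out fish oil replicate 3 gave -0.13 for fish oil. Between the oils it ran from 0.09 without fish oil replicate 3 to 0.54 without DHA oil replicate 3.

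Every library held at least 3131 VEGFA reads, so counting error was small beside the gap between tumours. In control replicate 2 the 3131 reads had an exact 95% Poisson interval of 3022 to 3243, and in control replicate 1 the 8422 reads had one of 8243 to 8604. The intervals cover counting error only. Within diets VEGFA had an SD of 0.49 on the log2 CPM scale, against a median of 0.24 over all genes tested. Its biological coefficient of variation in the edgeR fit was 25.3%, while the trend for genes of its abundance was 14.4%. That ratio of 1.75 put VEGFA at the 98.5th percentile of the genes tested. Differences between diet means made up 7.85% of its sum of squares over the 10 libraries, against a median of 17.2% over all genes. Such a share is above 0 even without an effect of diet, and the share under random labels was not computed.

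**Figure D2:**
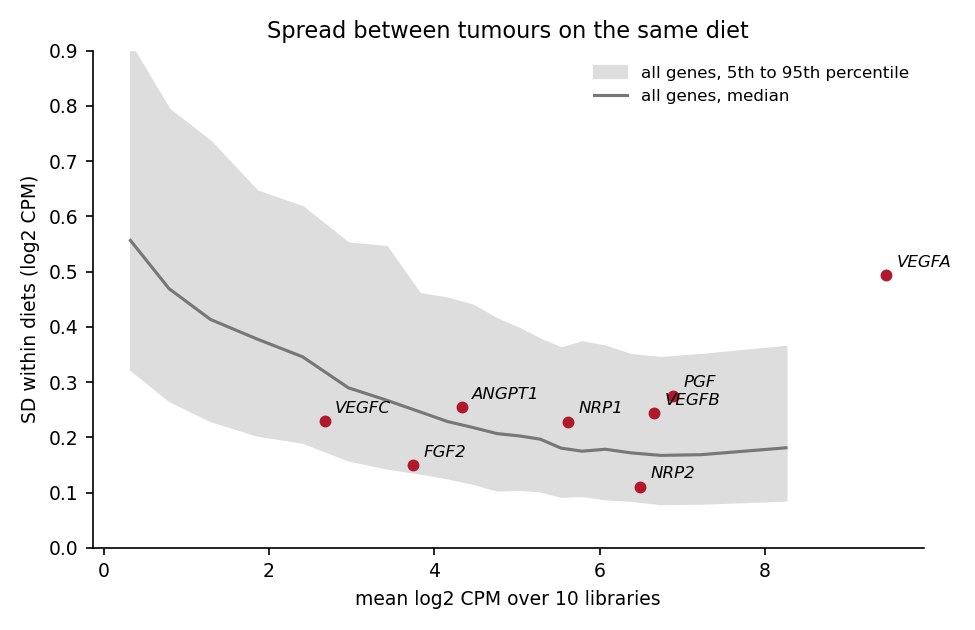
Standard deviation of log2 CPM within diets against mean log2 CPM, for the 8 tested genes (red points). The band is the 5th to 95th percentile and the line the median of all 16013 genes in 20 bins of mean level. VEGFA, at 0.49, lies to the right of where the band ends, and above the 95th percentile of the highest bin, 0.36. NRP2, at 0.11, FGF2, at 0.15, and VEGFC, at 0.23, lie below the line.

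The other VEGF ligands lay closer together. VEGFB, whose product binds VEGFR1, was at 96.3, 117 and 94.99 CPM in control replicates 1 to 3 and at 104, 105 and 128 CPM in DHA oil replicates 1 to 3. Fish oil replicates 1 to 4 held 111, 73.0, 112 and 81.1 CPM. The lowest values of VEGFB were thus in fish oil replicates 2 and 4, the pair that stood apart on the first principal component. With fish oil VEGFB differed from its level with DHA oil by a log2 value of -0.25 (-0.59 to 0.09; edgeR adjusted p = 0.875). That difference was -0.15 when either fish oil replicate 2 or DHA oil replicate 3 was left out, and -0.0058 without fish oil replicates 2 and 4. All 4 fish oil libraries lay below the DHA oil mean of 112 CPM. Against control the log2 fold change of VEGFB in fish oil was -0.13, and it was 0.12 without fish oil replicates 2 and 4.

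PGF encodes placental growth factor, another VEGFR1 ligand. In control it was at 143, 93.2 and 117 CPM, and in DHA oil at 110, 106 and 133 CPM. Fish oil replicates 1 to 4 held 127, 89.8, 147 and 130 CPM. No diet stood out, since the 3 means were 118 ± 24.9 (SD, n = 3), 116 ± 14.9 (SD, n = 3) and 123 ± 24.01 CPM (SD, n = 4) for control, DHA oil and fish oil. The log2 fold change of PGF was -0.02 (-0.41 to 0.38) for DHA oil against control. With fish oil it was 0.07 (-0.30 to 0.44), and between the oils 0.08 (-0.29 to 0.45).

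VEGFC, known as a lymphatic growth factor, was the VEGF ligand with the fewest reads, 37 to 77 per library. The controls were tightly grouped at 5.83, 5.75 and 5.95 CPM. DHA oil replicates 1 to 3 spread around them at 7.33, 4.59 and 5.90 CPM. Fish oil replicates 1 to 4 held 5.92, 7.95, 7.30 and 5.63 CPM. At these counts a single library is imprecise: the 44 reads of control replicate 2 had an exact Poisson interval of 32.0 to 59.1, wider than the differences between controls. The log2 fold change of VEGFC was 0.02 (-0.49 to 0.53) for DHA oil against control, 0.20 (-0.28 to 0.68) for fish oil against control and 0.18 (-0.29 to 0.66) between the oils. Without fish oil replicate 2 the value for fish oil was 0.10, and the value between the oils ran from 0.03 without DHA oil replicate 2 to 0.36 without DHA oil replicate 1.

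The shares of reads among VEGF ligands within a library do not depend on how libraries are scaled. They are not divided by transcript length, so they serve to compare libraries and not to rank the ligands. VEGFA made up 65.4% of the reads of VEGFA, VEGFB, VEGFC and PGF together in control replicate 2 and 82.9% in fish oil replicate 2, the lowest and highest of the 10. The reads of VEGFA per read of VEGFB were 9.28, 3.49 and 10.01 in control replicates 1 to 3. In DHA oil they were 5.58, 4.93 and 6.53, and in fish oil replicates 1 to 4 they were 5.55, 11.3, 10.1 and 7.54. The ratio thus ran from 3.49 to 11.3 among tumours, with overlap between every pair of diets, and control replicate 2 was again the lowest. These ratios describe the libraries and were not tested.

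Of the angiopoietins, ANGPT1 had, for fish oil against control, the largest single log2 fold change among the 8 tested genes and 4 comparisons. Control replicates 1 to 3 held 19.6, 15.2 and 16.3 CPM. DHA oil replicates 1 to 3 held 16.2, 17.9 and 22.2 CPM. Fish oil replicates 1 to 4 held 23.4, 21.1, 19.8 and 31.9 CPM. All 4 fish oil tumours were above all 3 controls, although the lowest fish oil value and the highest control value, 19.8 and 19.6 CPM, nearly met. DHA oil tumours overlapped both of the other diets.

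Mean ANGPT1 was 17.0 ± 2.32 CPM (SD, n = 3) on chow, against 18.8 ± 3.11 CPM (SD, n = 3) with DHA oil. With fish oil it was 24.02 ± 5.43 CPM (SD, n = 4). Fish oil against control gave a log2 fold change of 0.49 ± 0.19 (SE), 1.41-fold, with a 95% interval of 0.09 to 0.90. The unadjusted p of ANGPT1 by edgeR was 0.0200, and it did not pass adjustment over all genes (adjusted p = 0.999, and 0.515 to 1 over the alternatives). ANGPT1 was the 1 member of 8 without overlap in this comparison, where 3.74% of all genes had none. Counting the main fit and its 19 alternatives, the unadjusted p of ANGPT1 was under 0.05 in 14. It was 0.0566 by limma-voom (log2 fold change 0.36). By edgeR it was 0.0592 without control replicate 3 and 0.0781 without control replicate 2. Without fish oil replicate 4, the highest, the log2 fold change was 0.32 (unadjusted p = 0.0703 by edgeR). Without fish oil replicates 2 and 4 the log2 fold change was 0.33 (unadjusted p = 0.0921 by edgeR). For DHA oil against control it was 0.14 (-0.29 to 0.57), and between the oils it was 0.36 (-0.04 to 0.75; adjusted p = 0.875).

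**Figure D3:**
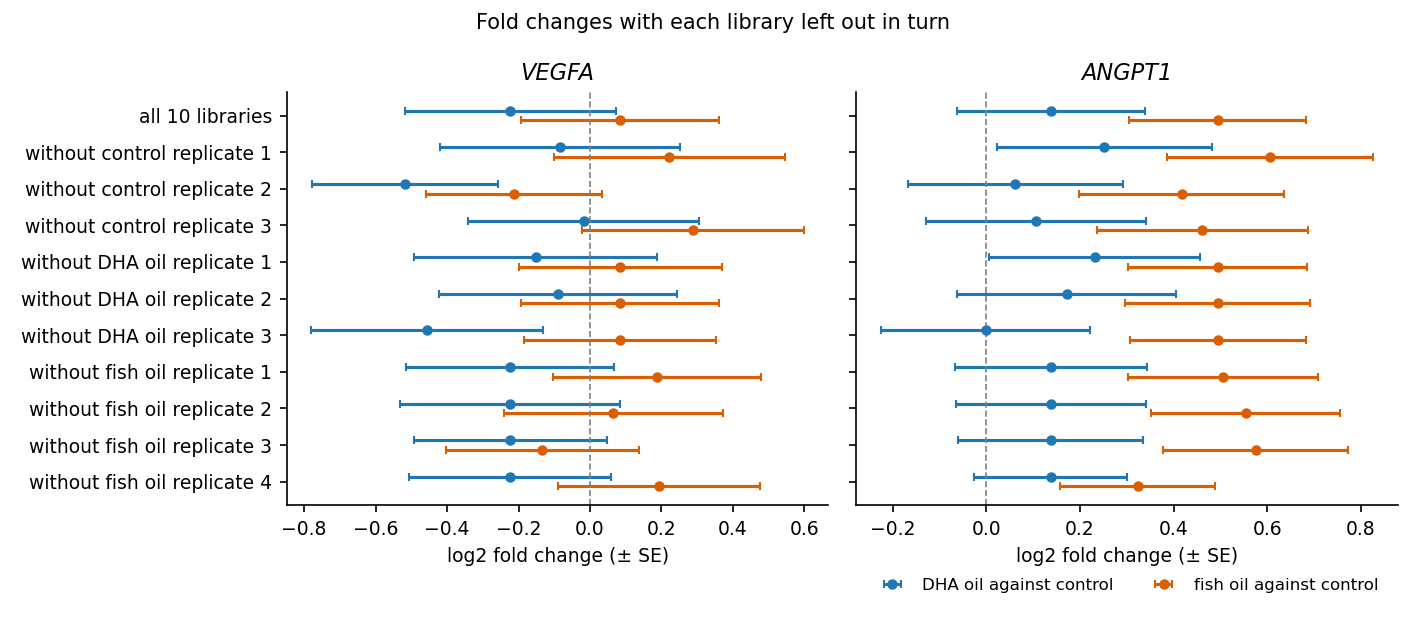
Log2 fold change (point) and SE (bar) of VEGFA and ANGPT1 for DHA oil (blue) and fish oil (orange) against control, with all 10 libraries and with each left out in turn. The VEGFA value for fish oil ran from -0.21 to 0.29 and crossed 0, while that of ANGPT1 stayed above 0, from 0.32 to 0.61.

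ANGPT2 was close to the limit of detection in most tumours. Control replicates 1 to 3 held 4, 3 and 23 reads, DHA oil replicates 1 to 3 held 1, 3 and 2 reads, and fish oil replicates 1 to 4 held 8, 10, 1 and 2 reads. Control replicate 3 held 23 of the 30 control reads, with an exact 95% Poisson interval of 14.6 to 34.5 that did not overlap the 1.09 to 10.2 of control replicate 1. In the other 9 libraries there were from 1 to 10 reads. The 7 oil tumours were all below the control mean of 1.33 CPM, which that single library set.

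In a fit without the filter the log2 fold change of ANGPT2 for DHA oil against control was -2.52 (95% interval -4.10 to -0.95; edgeR adjusted p = 0.448). Without control replicate 3 it was -0.90 (adjusted p = 1). For fish oil against control it was -0.98 (-2.23 to 0.28) with all libraries and 0.64 without control replicate 3, so the direction changed with 1 library. Between the oils it was 1.54 (-0.09 to 3.18; adjusted p = 0.847), on 6 reads in all of DHA oil and 21 in fish oil. ANGPT2 passed adjustment for DHA oil against control under 3 alternatives, in each of which control replicate 3 was kept: in a fit of these groups alone (adjusted p = 0.0371), without control replicate 2 (0.0231) and without fish oil replicates 2 and 4 (0.0437).

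FGF2, a growth factor for endothelial and neural cells, was higher in the means of both oils than in control, by a margin that did not pass adjustment. Control replicates 1 to 3 held 12.6, 11.5 and 10.1 CPM. DHA oil replicates 1 to 3 held 14.8, 13.2 and 14.7 CPM, and fish oil replicates 1 to 4 held 12.2, 15.9, 13.2 and 15.0 CPM. All 3 DHA oil tumours were above all controls, while fish oil replicate 1 lay below the highest control. All 7 oil tumours were above the control mean of 11.4 CPM.

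For both oils against control FGF2 had a log2 fold change of 0.31 ± 0.15 (SE), with a 95% interval of -0.01 to 0.63 and an unadjusted p of 0.0587 by edgeR (adjusted p = 1.00, and 0.982 to 1 over the alternatives). The values for single oils were 0.32 (-0.06 to 0.69) with DHA oil and 0.30 (-0.05 to 0.66) with fish oil; these comparisons share the control libraries. Without fish oil replicates 2 and 4 the FGF2 value for fish oil was 0.15. Leaving out control replicate 3, the lowest library, gave FGF2 0.23 for both oils against control (unadjusted p = 0.217 by edgeR). The values for single oils were then 0.24 with DHA oil and 0.22 with fish oil (unadjusted p = 0.254 and 0.264 by edgeR). Limma-voom gave FGF2 an unadjusted p of 0.0374 for both oils against control (adjusted p = 0.991). For DHA oil against control it gave 0.0404 (adjusted p = 0.781). FGF2 was the 1 member of 8 whose groups did not overlap for DHA oil against control, where 10.6% of all genes had none. No member was without overlap for both oils against control (1.12% of all genes) or between the oils (4.95%). Between the oils the difference in FGF2 was -0.01, with an interval of -0.36 to 0.33. Across the 10 libraries the FGF2 level had r = 0.588 with the log2 total count; the part of depth in the differences was not tested.

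**Figure D4:**
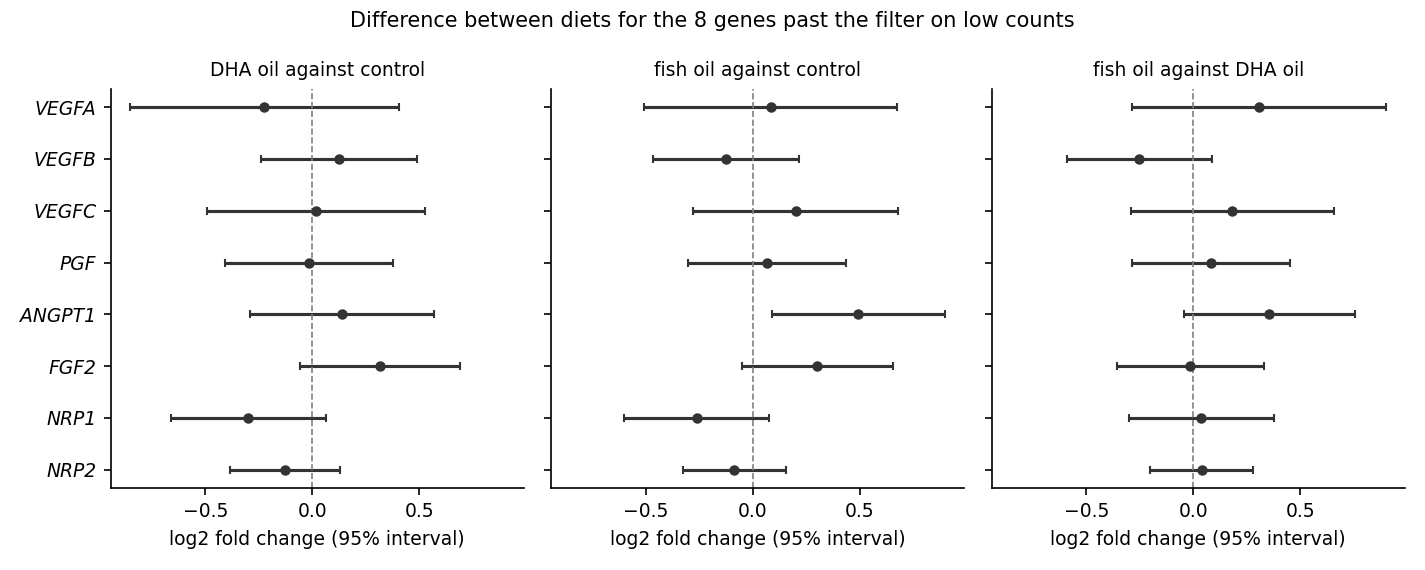
Log2 fold change (point) with its 95% interval (bar) of the 8 tested genes in 3 comparisons, from the edgeR fit of all 10 libraries. The interval for ANGPT1 in fish oil against control, 0.09 to 0.90, is the only one shown that leaves out 0, and that gene did not pass adjustment.

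The co-receptors had lower means in both oils than in control, again without a call. NRP1, which binds VEGFA and semaphorins, was at 46.9, 54.4 and 69.0 CPM in control replicates 1 to 3. DHA oil tumours were closely grouped at 48.2, 43.8 and 46.1 CPM. Fish oil replicates 1 to 4 held 39.1, 59.9, 44.9 and 44.7 CPM. The lowest control lay within the oil range, and control replicate 3 was the highest of all 10 tumours. The log2 fold change of NRP1 was -0.30 (-0.66 to 0.06) for DHA oil against control. The value in fish oil was -0.26 (-0.60 to 0.08), and between the oils it was 0.04 (-0.30 to 0.38). For both oils against control NRP1 had -0.28 (-0.58 to 0.02; unadjusted p = 0.0681 by edgeR), and -0.12 without control replicate 3 (unadjusted p = 0.457 by edgeR). Without that control library NRP1 had -0.14 for DHA oil and -0.10 for fish oil (unadjusted p = 0.453 and 0.558 by edgeR). The fish oil value was -0.40 without fish oil replicate 2. Without fish oil replicates 2 and 4 it was -0.43 (unadjusted p = 0.0151 by edgeR). The value for both oils was then -0.36 (unadjusted p = 0.00975 by edgeR, adjusted p = 0.94), and neither passed adjustment. With all libraries, limma-voom gave NRP1 an unadjusted p of 0.0252 for both oils against control. It was 0.0323 for DHA oil and 0.0714 for fish oil against control.

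NRP2, known as the neuropilin that also binds VEGFC, was the steadiest of the 8 tested genes. It stood at 93.5, 91.2 and 99.6 CPM in control, at 92.7, 81.5 and 86.1 CPM in DHA oil and at 84.7, 97.2, 95.5 and 79.1 CPM in fish oil. From lowest to highest library it differed 1.26-fold, and its within-diet SD of 0.11 on the log2 scale was at the 6.40th percentile of all genes. This narrow spread gave the narrowest intervals of the members: -0.13 (-0.38 to 0.13) for DHA oil against control, -0.09 (-0.33 to 0.15) for fish oil against control and 0.04 (-0.20 to 0.28) between the oils. The biological coefficient of variation of NRP2 was 0.794 of the trend for its abundance, at the 17.9th percentile of the genes tested. By that measure FGF2 was lower, with 0.739 at the 6.48th percentile. The reads of NRP1 per read of NRP2 lay between 0.461 in fish oil replicate 1 and 0.693 in control replicate 3, and within 0.520 to 0.537 in DHA oil.

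As a group, the 8 tested genes shared no direction. For both oils against control 4 had a log2 fold change above 0 and 4 below, with a median of 0.013, while the median of all 16013 genes was 0.00159. For DHA oil against control the split was 4 and 4 with a median of 0.00137 (all genes 0.00319). In fish oil it was 5 and 3 with a median of 0.0762 (all genes 0.00789). Between the oils 6 were above 0 and 2 below, with a median of 0.0618 (all genes 0.0103). Whatever its sign, the log2 fold change had a median size of 0.132 in DHA oil, beside 0.117 over all genes. In fish oil it was 0.164, beside 0.129. Between the oils it was 0.133, beside 0.145, and for both oils against control 0.109, beside 0.0998.

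Whether members varied together from tumour to tumour was examined over the 28 pairs of the 8 genes. The closest pair was NRP1 and NRP2, the 2 co-receptors, with Pearson r = 0.713 (permutation p = 0.0196) and Spearman rho = 0.782 (permutation p = 0.0106) over 10 libraries. Adjusted over the 28 pairs, these p-values were 0.550 and 0.277. Without control replicate 3 and fish oil replicate 2, the libraries farthest from the NRP1 median, r was 0.459, on a narrower range of NRP1. On deviations from the diet means it was 0.622. VEGFC and NRP2, a ligand and its co-receptor, had r = 0.655 (permutation p = 0.0400, adjusted 0.560) and rho = 0.733 (permutation p = 0.0198, adjusted 0.277). That r was 0.888 on deviations from the diet means and 0.444 without the 2 libraries farthest from the VEGFC median.

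VEGFA and PGF had r = 0.569 (permutation p = 0.0868, adjusted 0.572) and rho = 0.661 (permutation p = 0.0438, adjusted 0.409). Without control replicate 2, low in both, and fish oil replicate 3, high in both, r was 0.178. Leaving out the extremes of VEGFA narrows its range, which can by itself lower r. Without fish oil replicates 2 and 4 it was 0.865. VEGFA and NRP2 had r = 0.526 (permutation p = 0.118, adjusted 0.572) and rho = 0.624 (permutation p = 0.0598, adjusted 0.418), with 0.706 when those extremes of VEGFA were left out. The lowest r belonged to ANGPT1 and NRP2, at -0.596 (permutation p = 0.0656, adjusted 0.572) with rho = -0.394 (permutation p = 0.262, adjusted 0.668), and -0.354 without fish oil replicate 4 and control replicate 2. No pair passed adjustment. VEGFA and FGF2 had r = 0.00246.

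**Figure D5:**
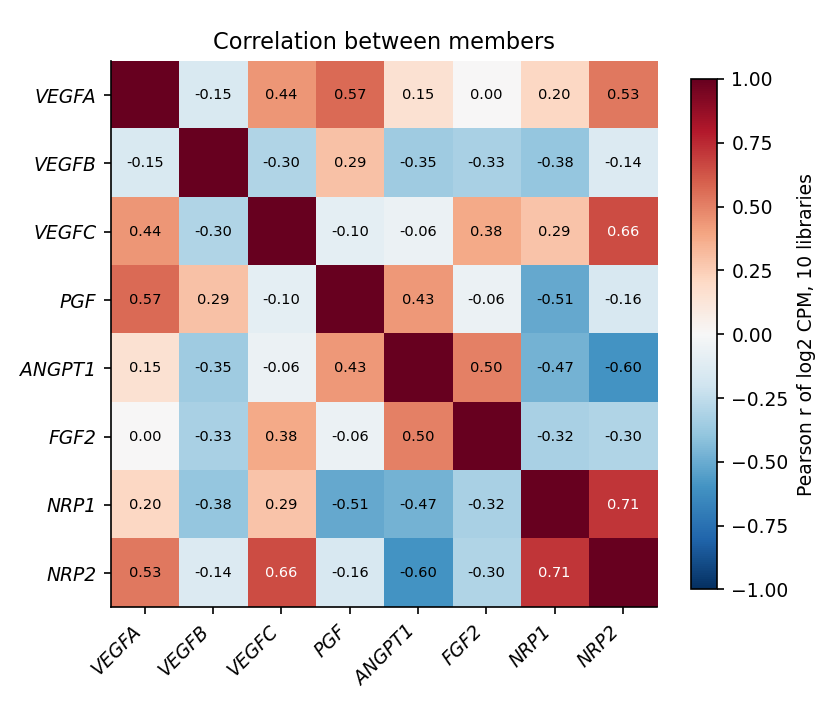
Pearson r of log2 CPM over the 10 libraries for each of the 28 pairs of the 8 tested genes, from -1 (blue) to 1 (red). NRP1 and NRP2 have the highest value, 0.71, and ANGPT1 and NRP2 the lowest, -0.60.

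The genes with levels most like VEGFA over the 10 libraries were not members. Among 14466 genes whose mean log2 CPM was 1 or more, ENSG00000147234 came first with r = 0.965 and ENSG00000161958 second with r = 0.946; being the best of many, these values are a description and carry no test. ENSG00000161958 stood at 112 CPM in control replicate 2 and at 194 CPM in fish oil replicate 3, its lowest and highest libraries, which were also those of VEGFA. Of the members, PGF ranked 766th by this measure, NRP2 1013th and VEGFB 9325th, with r = -0.15.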

How the data were processed

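The deposited table holds raw counts of reads per human Ensembl gene, 1 column per tumour, not normalised as far as the values show. Alignment with STAR to GRCh38 and counting with HTSeq 0.9.0 are per the submitters' processing notes; the strand setting, the annotation release and whether mouse reads were removed are not stated in the labels used here. Poisson intervals cover counting error only.

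Genes were filtered with filterByExpr (minimum count 10), scaled by TMM and tested with quasi-likelihood F tests in edgeR 4.0.16 (R 4.3.3). A single model of the 10 libraries across all genes had diet as its factor and Benjamini-Hochberg adjustment (threshold 0.05). ANGPT2 came from a separate fit of the same model without the filter, on 26038 genes and with its own estimate of spread. The SE is the absolute log2 fold change over the square root of F. Log2 CPM used a prior count of 2. Correlations used 100000 permutations. Alternatives included DESeq2 1.42.0 and limma-voom with quality weights (limma 3.58.1), and the test was checked on simulated counts.

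All 9 members were named by rule, and up to 2 identifiers most like VEGFA were given. Members and lists were chosen with earlier results of these data known. The reference tables cover mouse genes and matched 0 of 33538 identifiers, so 12 lists with 142 symbols of receptors, other pathway genes and cell type markers were not analysed here, and no sequence or position is given. Member names come from the rule that defined the group. Same-numbered libraries correlated at -0.171 to 0.182 in their deviations from diet means, over 0.1 in 1 of 9 pairs. The main fit did not treat the samples as paired. These correlations cannot exclude a pairing, because each deviation is from a mean of few libraries.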

Additional observations from a re-analysis of the deposited data

How the results depend on the processing

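The count of members called was 0 of 8 in all 4 comparisons under every alternative run, among them the replicate block (0), DESeq2 and limma-voom, while the count over all genes ran from 0 to 76 for both oils against control, 0 to 57 for DHA oil, 0 to 56 for fish oil and 0 to 14 between the oils, each highest with no filter. Of 659 recomputed log2 fold changes of the 9 members, 620 kept direction and call, 36 changed sign, none of them called, and 3 were newly called, all ANGPT2 for DHA oil. The cause of these changes was not tested. DESeq2 and limma-voom gave no value for ANGPT2, which the filter removes.

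For both oils against control, VEGFB (main value -0.0003653) was 0.0007897 with upper quartile scaling, 0.0562 with limma-voom, 0.0179 with the replicate block and 0.12 without fish oil replicates 2 and 4, and VEGFA was 0.0164 with the replicate block. VEGFC for DHA oil was -0.0347 with limma-voom. Without fish oil replicates 2 and 4, VEGFB for fish oil was 0.12 and NRP1 between the oils was -0.13.

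With each library left out, the ranges that crossed 0 were as follows. For both oils they were -0.36 to 0.14 for VEGFA, -0.0556 to 0.10 for VEGFB and -0.11 to 0.19 for PGF. For DHA oil they were -0.16 to 0.18 for VEGFC, -0.16 to 0.15 for PGF and -0.001468 to 0.25 for ANGPT1. For fish oil they were -0.21 to 0.29 for VEGFA, -0.0733 to 0.23 for PGF and -1.43 to 0.64 for ANGPT2. Between the oils they were -0.0104 to 0.21 for PGF, -0.0799 to 0.0466 for FGF2, -0.10 to 0.12 for NRP1 and -0.005523 to 0.0939 for NRP2. ANGPT1 for fish oil ranged from 0.32 to 0.61. Depth limits ANGPT2, with 1 to 10 reads in 9 libraries.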
